A study of Mus musculus with 8 samples.

Results

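PAR bZIP factors and other output genes of the circadian clock were examined in the pancreas of NOD mice, a strain that develops autoimmune diabetes. The 7 genes are Dbp, Tef, Hlf, Nfil3, Wee1, Usp2 and Rora, of 21597 gene symbols on the array, and every non-control probe carrying one of these symbols was taken, which gave 14 of 41174 probes. They were chosen with their ratios in these same mice known, over all arrays and by slide, so those ratios are given as a description and carry no test. The labelled groups were female NOD mice aged 12 weeks, 8 in number, and age-matched NOD.B10 mice, the congenic strain that carries the H2b region on the NOD background and does not become diabetic. RNA of each NOD mouse was labelled red (Cy5) and hybridized on its own array against 1 pool of 8 NOD.B10 pancreata labelled green (Cy3). The pool gives no spread between NOD.B10 mice, and no array had the dyes swapped. The labels say the mice were bred at Stanford and the study's methods say they were bought from Jackson Laboratories. The time of day of collection is not given in the sources used here.

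The circadian clock is a feedback loop in which CLOCK and BMAL1 (encoded by Arntl) bind E-box sequences and switch on the genes of their own repressors, the PER and CRY proteins. Its output is carried in part by the PAR bZIP activators DBP, TEF and HLF, which bind D-box sequences in the promoters of metabolic genes, and by the repressor NFIL3 (E4BP4), which binds the same sequence. A further loop sets ROR activators against REV-ERB repressors at ROR elements, which are found at Arntl and Nfil3. In many tissues Dbp and Tef transcripts peak at the time of day when Nfil3 transcripts are low.

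The promoter sequences of Dbp, Tef and Nfil3, the DNA-binding members with the widest range of ratios among mice, are shown because clock factors act by binding short promoter elements. The 250 bases before the annotated start were taken from RefSeq on GRCm38.p6, and capitals mark a match to an E-box (CACGTG or the variant CACGTT), a D-box (TTATGTAA or the variant TTACGTAA) or a ROR element (TAGGTCA or the variant TGGGTCA), searched on both strands. The sequences are, on the strand of the gene:
Dbp, chr7:45704997-45705246, plus strand: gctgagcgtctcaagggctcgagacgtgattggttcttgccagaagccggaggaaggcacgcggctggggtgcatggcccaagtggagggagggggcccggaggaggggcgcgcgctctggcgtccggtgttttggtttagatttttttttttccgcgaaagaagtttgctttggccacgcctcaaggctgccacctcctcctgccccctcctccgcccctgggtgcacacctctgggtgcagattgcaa
Tef, first start, chr15:81802423-81802672, plus strand: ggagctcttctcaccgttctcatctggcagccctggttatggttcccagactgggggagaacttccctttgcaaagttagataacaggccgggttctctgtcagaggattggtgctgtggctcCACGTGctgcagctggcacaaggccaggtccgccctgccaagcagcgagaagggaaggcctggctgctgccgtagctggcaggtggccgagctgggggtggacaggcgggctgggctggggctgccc
Tef, second start, chr15:81811164-81811413, plus strand: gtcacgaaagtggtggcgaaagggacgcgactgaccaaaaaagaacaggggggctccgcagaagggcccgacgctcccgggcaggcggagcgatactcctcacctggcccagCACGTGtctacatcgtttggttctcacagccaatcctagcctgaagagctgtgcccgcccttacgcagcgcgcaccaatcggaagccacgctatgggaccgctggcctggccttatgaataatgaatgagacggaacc
Nfil3, chr13:52981040-52981289, minus strand: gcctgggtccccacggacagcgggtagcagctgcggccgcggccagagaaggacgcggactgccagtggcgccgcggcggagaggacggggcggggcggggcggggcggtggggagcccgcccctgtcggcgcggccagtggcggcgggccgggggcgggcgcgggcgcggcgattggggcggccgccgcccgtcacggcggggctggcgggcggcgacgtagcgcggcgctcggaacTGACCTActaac
Both Tef starts held CACGTG, beginning 127 and 138 bases before the start, a sequence present in 6.02% of the 32851 promoter windows of this length. The Nfil3 window held TGACCTA, which is TAGGTCA on the other strand, beginning 12 bases before the start, and 2.23% of all windows held it. The windows of Dbp, Hlf, Usp2 and Rora held none of the 6 sequences, which says only that these letters are not within 250 bases, and Wee1 had no entry. CACGTT was present in 3.85% of windows, TTATGTAA in 0.819%, TTACGTAA in 0.113% and TGGGTCA in 3.24%. None of the 6 sequences overlaps another in these windows.

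The 8 arrays lie on 2 slides, as read from the barcodes in the files, with mice 1 to 4 on slide 1 and mice 5 to 8 on slide 2. The slide, its scan and the 4 mice hybridized on it cannot be told apart. Between 57.0 and 60.2% of probes had green signal well above background, the scanner software's flag for a reliable signal, and the red share was 29.7 to 34.8% on slide 1 and 21.4 to 33.5% on slide 2. The median coefficient of variation of repeated red spots was 16.1 to 24.8% on slide 1 and 38.2 to 63.5% on slide 2, where 3 of 4 grids were not rated good. Acinar markers were present (8 of 9 probes had red well above background on at least 4 arrays), as were 5 of 6 islet markers on the same criterion. All values below are log2 ratios of NOD over the pool for the brightest probe of a gene unless stated, so that 1 is a 2-fold and -1 a halved level, and signals are not compared between genes because probes differ in brightness.

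On slide 1 the activators Dbp and Tef and the protease gene Usp2 stood near or slightly below the pool and the repressor Nfil3 stood above it, while on slide 2 the first 3 stood well above the pool and Nfil3 well below it. For these 4 of 7 genes the values of the slides did not overlap, against 14.3% of the 18505 genes tested (7.41% with slide 2 higher, as in 3 members, and 6.93% with slide 2 lower, as in 1). Hlf, Wee1 and Rora overlapped between slides. The mean over 8 mice was past 2-fold for 1 of 7 members (Dbp), against 3.6% of all genes. Without any 1 of mice 1 to 4 the count was 4 (Dbp, Tef, Usp2 and Nfil3). With each dye centred on its median it was also 4, but of other genes: Dbp, Usp2 and the background probes of Hlf and Wee1. On slide 1 alone 1 member (Nfil3) was past 2-fold, against 5.87% of genes, and on slide 2 alone 4 members were, against 6.95%. These shares are given only as a background, since the members were chosen on the same ratios.

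**Figure D1:**
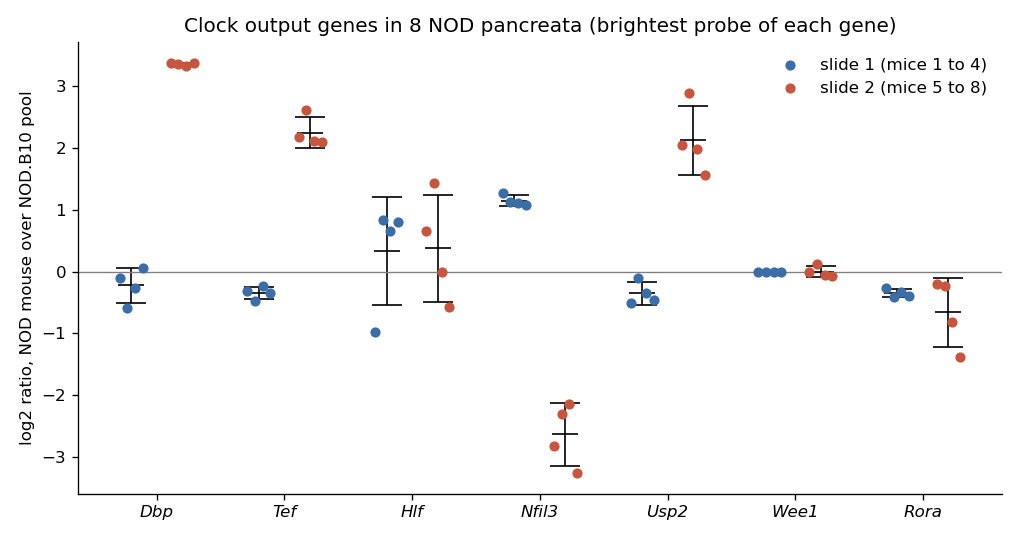
Log2 ratio of each NOD mouse over the NOD.B10 pool (vertical axis) for the brightest probe of the 7 genes, with slide 1 in blue and slide 2 in red; black bars are the mean and SD of 4 mice. Dbp, Tef and Usp2 are higher on slide 2 (means 3.36, 2.25 and 2.12), Nfil3 is lower (mean -2.63), and the points of Hlf, Wee1 and Rora overlap.

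Dbp encodes the PAR bZIP activator whose transcript has one of the largest daily swings in peripheral tissues. Its probe is a 60-base sequence on mm8 chromosome 7 (45577937 to 45577996, plus strand). The Dbp ratios were -0.10, -0.59, -0.27 and 0.06 in mice 1 to 4 and 3.37, 3.36, 3.33 and 3.37 in mice 5 to 8. Each slide 2 mouse therefore lay at least 3.33 above the pool, and the slide 1 mice lay on either side of it. The slide 1 mean was -0.23 ± 0.28 (SD, n = 4), 0.855 times the pool, and the slide 2 mean was 3.36 ± 0.020 (SD, n = 4), 10.3 times the pool. The slide means differ by 3.58, or 12.0-fold, and Dbp ranked 1 from the highest of 18505 genes in this difference on brightest probes. The mean over all 8 mice, 1.57 ± 1.92 (SD, n = 8), describes neither set of mice. Red and green were well above background for Dbp on all 8 arrays.

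The narrow slide 2 spread of Dbp depended on the dye normalization. With each dye only centred on its median the 4 slide 2 ratios ran from 2.99 to 3.57 (SD 0.27), and the slide 1 ratios from -0.64 to 0.10. The difference between slides stayed at 3.41 on that scale.

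The green signal of Dbp, which is the same pool on every array, also rose between slides. Before dye normalization the green signal was 516 to 545 units on slide 1 and 1752 to 2146 on slide 2, a log2 difference of 1.83 or 3.55-fold. Among 21567 probes with green well above background on every array this ranked 2 from the highest shift, and the percentiles 5 and 95 of these probes were -0.35 and 0.31. The red signal of Dbp went from between 56.5 and 94.3 units to between 1552 and 3225, a log2 difference of 4.78. The pool's own Dbp signal thus moved with the slide, and its part in the ratio was not tested. Of the other 7 member probes with green well above background on all arrays, the green shifts ran from -0.22 for Nfil3 to 0.27 for Usp2.

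**Figure D2:**
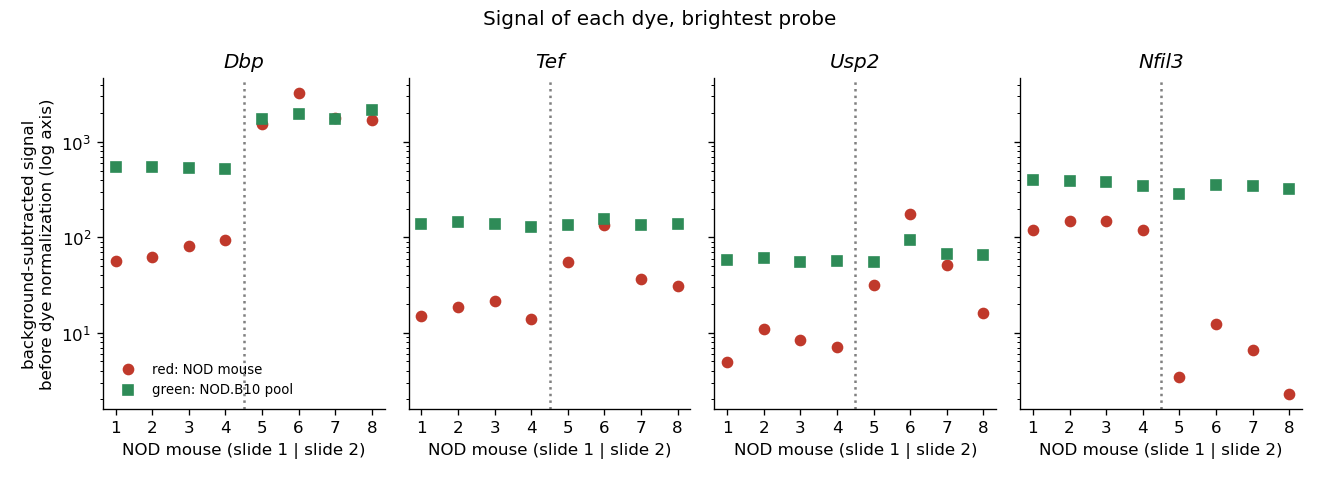
Background-subtracted signal before dye normalization (vertical log axis) for each NOD mouse (horizontal axis; the dotted line parts slide 1 from slide 2), with red circles for the NOD mouse and green squares for the pool. For Dbp both dyes step up on slide 2 (green from at most 545 to at least 1752), whereas for Tef, Usp2 and Nfil3 the red signal steps and the mean green signal moves by at most 0.27 on the log2 scale.

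Tef, the second PAR bZIP activator, had the same order of slides on its brightest probe. The ratios were -0.32, -0.47, -0.24 and -0.34 in mice 1 to 4 and 2.17, 2.62, 2.11 and 2.09 in mice 5 to 8. All slide 1 mice were slightly below the pool and all slide 2 mice were more than 4-fold above it. The means were -0.34 ± 0.095 and 2.25 ± 0.25 (SD, n = 4 each), a difference of 2.59 or 6.03-fold, rank 5 from the highest of 18505 genes. Red and green were well above background on all arrays for this probe, and green ran from 128 to 155 units before dye normalization over both slides.

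Tef is read by 4 probes, and the other 3 were weak. The second brightest, at mm8 chromosome 15 (81651043 to 81651102), had red well above background on none of the 8 arrays and gave -0.12 ± 0.53 on slide 1 and 0.32 ± 0.89 on slide 2, which overlap. The third held a stand-in for red on 7 of 8 arrays, a value the software writes when a signal is at background, and its ratio was then exactly 0. The fourth did not pass the signal filter and spans 2106 bases of the genome. The slide difference of Tef rests on the brightest probe (81653753 to 81653812), and the mean over its 4 probes differed by 0.57.

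Hlf, the third PAR bZIP activator, could not be read reliably. Its ratios were -0.98, 0.83, 0.66 and 0.81 in mice 1 to 4 and 0.65, 1.43, 0.00 and -0.58 in mice 5 to 8. High and low values occurred on both slides. Red was well above background on none of the 8 arrays and green on 4, with red signals of at most 4.60 units before dye normalization. The mean of 0.35 ± 0.81 (SD, n = 8) was smaller than its spread, and the slide means differed by 0.046. A difference in Hlf was not detectable at this signal.

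Nfil3, the repressor at D-boxes, showed the opposite order of slides on both of its probes. On the brightest, at mm8 chromosome 13 (52979648 to 52979707, minus strand), the ratios were 1.27, 1.13, 1.11 and 1.08 in mice 1 to 4 and -2.82, -2.31, -2.14 and -3.26 in mice 5 to 8. Every slide 1 mouse was more than 2-fold above the pool and every slide 2 mouse more than 4-fold below it. The means were 1.15 ± 0.087, 2.21 times the pool, and -2.63 ± 0.51, 6.20-fold below it (SD, n = 4 each). The difference of -3.78, 13.7-fold, ranked 2 from the lowest of 18505 genes, with red well above background on only 1 of 4 slide 2 arrays. The mean over 8 mice was -0.74 ± 2.05 (SD, n = 8), again far from every single mouse.

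The second Nfil3 probe gave 1.06, 0.17, 0.48 and 0.65 in mice 1 to 4 and -2.68, -3.12, -2.19 and -2.50 in mice 5 to 8. Its slides did not overlap either, and their means differed by -3.22. The low side is limited by background. On the brightest probe red was well above background on 4 of 4 slide 1 arrays and on 1 of 4 slide 2 arrays, with 118 to 150 units falling to between 2.26 and 12.2, and on the second probe red was a stand-in on all 4 slide 2 arrays. Green stayed between 286 and 400 units on the brightest probe. The size of the slide 2 ratio also depended on the processing. A model-based background (offset of 50) with loess dye normalization gave Nfil3 a slide difference of -1.46 and a mean over 8 mice of 0.0069. Both steps changed together, and the part of each was not tested. This setting is called the model-based background below.

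Usp2, a ubiquitin-specific protease gene with a known daily rhythm, followed the order of Dbp and Tef. Its brightest probe, at mm8 chromosome 9 (43843736 to 43843795), gave -0.51, -0.10, -0.34 and -0.46 in mice 1 to 4 and 2.05, 2.89, 1.99 and 1.56 in mice 5 to 8. All slide 1 mice were below the pool and all slide 2 mice were above it. The means were -0.35 ± 0.18 and 2.12 ± 0.56 (SD, n = 4 each), a difference of 2.47 or 5.55-fold, rank 8 from the highest of 18505 genes. Red was well above background on 1 of 4 slide 1 arrays and 4 of 4 slide 2 arrays, and green on all 8. The second Usp2 probe, with red well above background on 1 of 8 arrays, ran from -1.19 to 0.53 on slide 1 and from -0.70 to 3.29 on slide 2, which overlap, and its high value came from mouse 6, the mouse with the highest ratio on the brightest probe too.

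With the same background, offset and loess normalization the slide difference was 1.07 for Tef and 1.13 for Usp2, and for Dbp it was 3.46. The direction was the same for all 3.

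Wee1, the kinase that holds CDK1 inactive before mitosis, was at background. Its single probe, at mm8 chromosome 7 (109930824 to 109930883), had no array with red or green well above background, did not pass the signal filter and held red stand-ins on 7 of 8 arrays, so that its ratios lay between -0.066 and 0.12. This says nothing about the level of Wee1. Of 7 CDK1 partners (Cdk1, the inhibitory kinase Pkmyt1, the CDC25 phosphatases and B cyclins), all passed the filter and 1 was called higher in NOD (at least 2-fold and limma adjusted p under 0.01), against 0.389% of all genes. This was Cdc25b, a phosphatase that activates CDK1, with 1.02 ± 0.51 (SD, n = 8) and a limma adjusted p of 0.00758, positive in 8 of 8 mice. The call lies at the edge of both thresholds: it was lost with any 1 mouse left out, where the mean was 0.85 to 1.08 and the adjusted p 0.00342 to 0.0227. It was lost as well with the model-based background (mean 0.25), with a plain one-sample statistic (adjusted p = 0.014) and with no signal filter (adjusted p = 0.0103). It was kept with slide as a covariate (adjusted p = 0.00951), from processed signals (0.00181), with red well above background on at least 4 arrays (0.00184) and with median-centred signals (0.000276). In the list as a whole 2 of 7 means were above 0, with a median log2 ratio of -0.37, beside -0.076 over all genes.

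Rora, the nuclear receptor that activates Arntl and Nfil3 through ROR elements, stood below the pool in all 8 mice on its brightest probe (mm8 chromosome 9, 69177968 to 69178027). The ratios were -0.27, -0.41, -0.33 and -0.39 in mice 1 to 4 and -0.20, -0.24, -0.81 and -1.39 in mice 5 to 8. The slides overlap, with the lowest values in mice 7 and 8. The mean was -0.50 ± 0.41 (SD, n = 8), and red was well above background on 6 of 8 arrays. With the model-based background the mean was -0.15, and over all 3 probes it was -0.26. The second probe (69178068 to 69178127) had a mean of -0.26 ± 0.28 and was below the pool in 6 of 8 mice, and the third held red stand-ins on all 8 arrays. Slide 2 values fell both above and below those of slide 1 on the second probe, so no order of slides was seen for Rora.

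**Figure D3:**
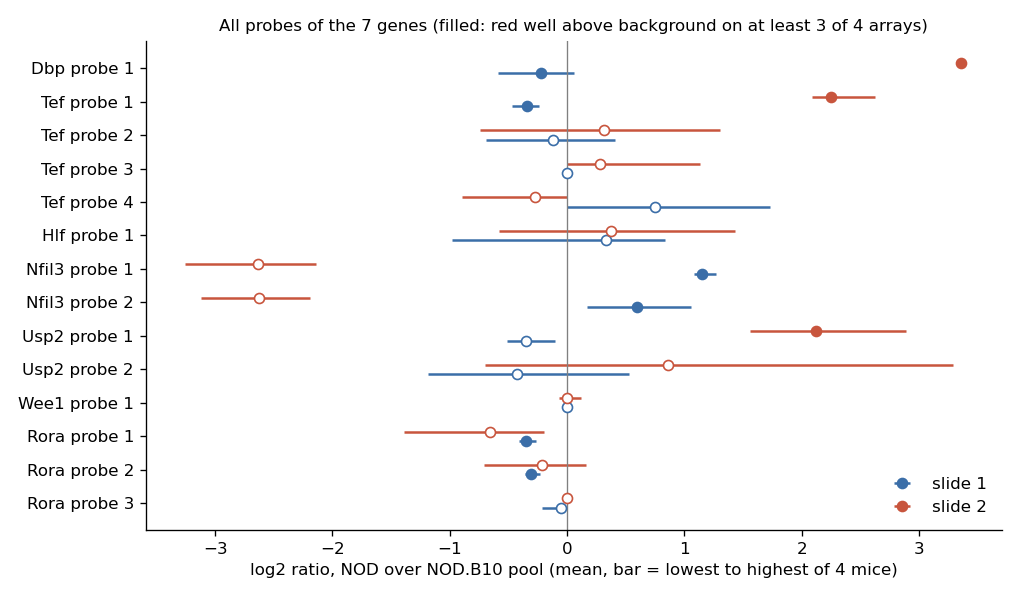
Mean log2 ratio of the 4 mice on slide 1 (blue) and slide 2 (red) for all 14 probes of the 7 genes, with bars from the lowest to the highest mouse; filled points had red signal well above background on at least 3 of 4 arrays. The slides part on both Nfil3 probes and on the brightest probes of Dbp, Tef and Usp2, and overlap on the other 9 probes.

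Rora and Nfil3 are also used by lymphoid cells, and T cell markers were read on the same arrays. Of 9 T cell genes none was called over the 8 mice, against 1.68% of genes, or between slides, against 0.135%. An unadjusted p under 0.05 over 8 mice was given to 7 of 9, against 35.8% of all genes, and 8 had a mean above 0, with a median log2 ratio of 0.61. Cd3d (2.07, adjusted p = 0.0101) and Lck (2.30, adjusted p = 0.0128) lay closest to the threshold among those past 2-fold. The marker genes here are named after their values were seen. Their summed red signal was 6970 to 11213 units on slide 1 and 4713 to 16969 on slide 2, which overlap, and 2 of the 9 had no array with red well above background. Among 11 liver markers 7 were called lower in NOD (limma), against 1.29% of all genes. Their summed red signal was 929 to 1210 on slide 1 and 990 to 2218 on slide 2, against 5152 to 7685 in green, and 8 of 11 had no array with red well above background. No gene of the acinar, islet, B cell, myeloid, adipocyte or muscle lists was called between slides. The slides did not overlap for 4 of 11 liver markers, 1 of 6 islet markers (Ins2), 1 of 9 T cell markers (Cd8a), 1 of 7 myeloid markers (Adgre1) and none of the other lists, against 14.3% of all genes. The liver markers were Serpina3k (slide difference 1.43, adjusted p = 0.0185), Fgb (1.41), Fga (-1.19) and Apoc3 (0.80), each with red well above background on no array. Within the islet list Ins1 and Ins2 had slide means of -1.33 and -1.13 on slide 1 and 0.12 and 0.37 on slide 2, and the list's median slide difference was 0.32. The median slide difference was -0.23 for the myeloid list, -0.59 for the T cell list and 0.22 for the liver list. The median log2 ratio of the adipocyte list was -1.30 on slide 1 and -0.44 on slide 2. The summed islet signal was 49901 to 199793 units on slide 1 and 169073 to 303648 on slide 2. The part of these cells in the members' ratios was not tested. In whole tissue, fewer cells of a type and less RNA per cell cannot be told apart.

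Over all 18505 genes the slide difference had a median of 0.00 and an SD of 0.53, with the percentiles 5 and 95 at -0.87 and 0.88. The slide comparison was added after the data were seen, and limma called 25 genes, 0.135%, and 32 probes, 0.114%, as different between slides (at least 2-fold, adjusted p under 0.01). With any 1 mouse left out 0 to 10 probes were called. Because the member values chose this comparison, no p is given for them.

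**Figure D4:**
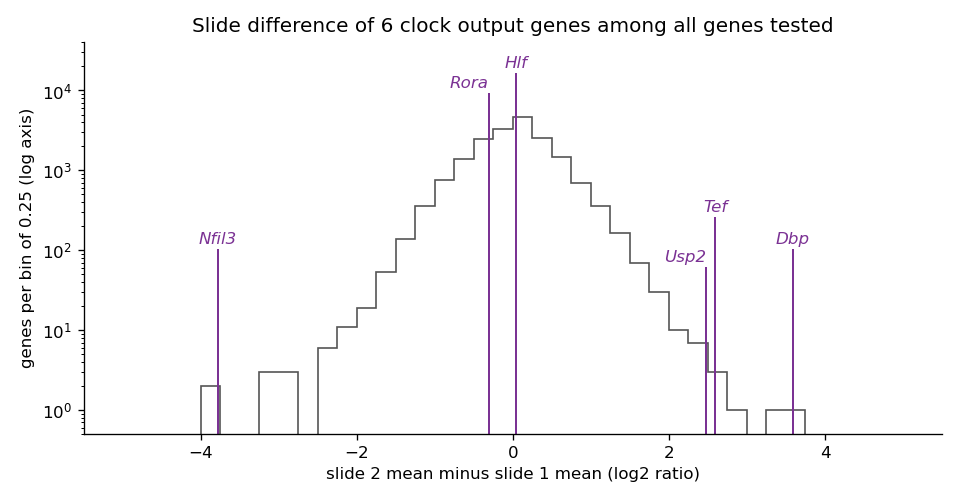
Number of genes (vertical log axis) by slide 2 mean minus slide 1 mean of the log2 ratio, in bins of 0.25, over 18505 genes; purple lines mark the 6 members that passed the signal filter. Dbp, Tef and Usp2 lie at 3.58, 2.59 and 2.47 and Nfil3 at -3.78, while Hlf and Rora lie within the bulk at 0.046 and -0.31.

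Among 13 core clock genes, all of which passed the filter, none was called between NOD and the pool over 8 mice, against 1.68% of genes and 1.72% of probes called in either direction. An unadjusted p under 0.05 was given to 7 of 13, against 35.8% of all genes, and means over the list ran from -1.84 to 1.02. Their median log2 ratio was 0.038, beside -0.076 over all genes. Arntl, which encodes the activator BMAL1, had the mean farthest from 0, -1.84 ± 1.75 (limma adjusted p = 0.065). It ran from -1.11 to 0.29 on slide 1 and from -4.50 to -2.63 on slide 2, where red was well above background on 0 of 4 arrays and a stand-in on 3 of all 8. The low side of Arntl is thus limited by background, as for Nfil3. With the model-based background, which also changed the dye normalization, the Arntl mean was -0.38 (limma adjusted p = 0.064). With median-centred signals the mean was -1.96 and Arntl was called (limma adjusted p = 0.00535). Nr1d2, which encodes REV-ERB beta, a repressor at ROR elements, had 1.02 ± 1.08 (adjusted p = 0.090), from -0.14 to 0.11 on slide 1 and from 1.89 to 2.22 on slide 2. Per1, a repressor of CLOCK and BMAL1, had 0.83 ± 0.52 (adjusted p = 0.016) and reached neither threshold. Clock had -0.63 ± 0.61 (adjusted p = 0.070), with all slide 2 mice below all slide 1 mice. With slide as a covariate, Arntl (limma adjusted p = 0.00316) and Nr1d2 (limma adjusted p = 0.000184) were called. That fit takes the slide difference out of the error, so its p does not measure the spread over all 8 mice. Slide 1 means were -0.32 for Arntl and 0.012 for Nr1d2, against -3.36 and 2.02 on slide 2. With the model-based background the Nr1d2 mean was 0.26 (limma adjusted p = 0.14) and neither gene was called.

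The slide comparison was chosen from the members' ratios, and the lists with earlier results known. Its adjusted p values describe these 8 arrays on 2 slides and do not measure a spread between slides. Between slides limma called 1 of the 13 core clock genes, Nr1d2, against 0.0594% of genes called higher. Nr1d2 was 2.01 higher on slide 2 (limma adjusted p = 0.00162). Without mouse 5 the difference was 2.04 and the call was lost (adjusted p = 0.0130), and it was also lost with median-centred signals (1.40) and with the model-based background (0.54). The slides did not overlap for 6 of the 13, against 14.3% of genes. None of the other 3 named core genes was called: the difference was -3.05 for Arntl (adjusted p = 0.028), whose slide 2 red signal was at background, -1.02 for Clock (adjusted p = 0.048) and 0.39 for Per1 (adjusted p = 0.60). With the model-based background it was -0.40 for Arntl (adjusted p = 0.30), -0.35 for Clock (adjusted p = 0.086) and 0.38 for Per1, and with median-centred signals it was -3.34 for Arntl, which was then called (adjusted p = 0.00907). Nr1d1, which encodes REV-ERB alpha and is named here after its values were seen, differed by probe. Its brightest of 3 probes gave slide means of 0.95 and 0.72, the second gave -2.25 and 1.55, and the third gave -0.58 and 0.29. The green signal of the pool shifted by 0.72 between slides on the brightest probe, 0.31 on the second and 0.20 on the third. The second probe, with red well above background on 4 of 8 arrays, had a slide difference of 3.80.

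The other 11 genes tied to the clock held 10 that passed the filter, and 1 of these was called, higher in NOD, against 0.389% of all genes. With slide as a covariate 2 were called, the second lower in NOD and with red well above background on no array. Coq10b, a coenzyme Q binding protein gene with a daily rhythm in several tissues, was 1.12 ± 0.31 (SD, n = 8; limma adjusted p = 0.000942), with slide ranges of 0.64 to 1.16 and 0.91 to 1.58 that overlap. It was above the pool in 8 of 8 mice, and it was not called with median-centred signals (0.88) or with the model-based background (0.34). The second Coq10b probe had a mean of 0.73, with red well above background on 4 of 8 arrays. The third had 0.38, with red well above background on no array, and the fourth did not pass the filter. None of the 10 was called between slides.

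The reported targets of DBP, TEF and HLF, mostly known from liver, were read as well. All 11 passed the filter and none was called over 8 mice, against 1.68% of genes, or between slides, against 0.135%. Their median log2 ratio was 0.056, beside -0.076 over all genes. Fgf21, a hormone made in exocrine pancreas and liver, had 1.05 ± 0.67 (limma adjusted p = 0.017, and 0.00699 with slide as a covariate, where it was called), from 1.12 to 1.98 on slide 1 and from 0.19 to 1.49 on slide 2. Cyp2a4, a cytochrome P450 whose signal may not be fully separate from that of its near copy Cyp2a5, had 0.98 ± 0.51 (adjusted p = 0.00822), just under 2-fold, and was called without mouse 7 (1.13) and with median-centred signals (1.18, adjusted p = 0.000187). With the model-based background it was 0.27. The Cyp2a5 probe went the other way, at -1.55 ± 0.85 (limma adjusted p = 0.0101), below the pool in 7 of 8 mice. With slide as a covariate Cyp2a5 was called too, lower in NOD. Its red was well above background on no array and a stand-in on 6 of 8, so the size of its ratio is limited by background. Alas1, the first enzyme of haem synthesis, had -0.27 ± 0.14 (adjusted p = 0.0089), and Pdxk, pyridoxal kinase, had 0.12 ± 0.24 (adjusted p = 0.36). The slides did not overlap for 1 of the 11, against 14.3% of all genes. This was Ppara, a fatty acid sensing nuclear receptor gene, which ran from -0.52 to -0.11 on slide 1 and from -0.090 to 0.63 on slide 2.

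**Figure D5:**
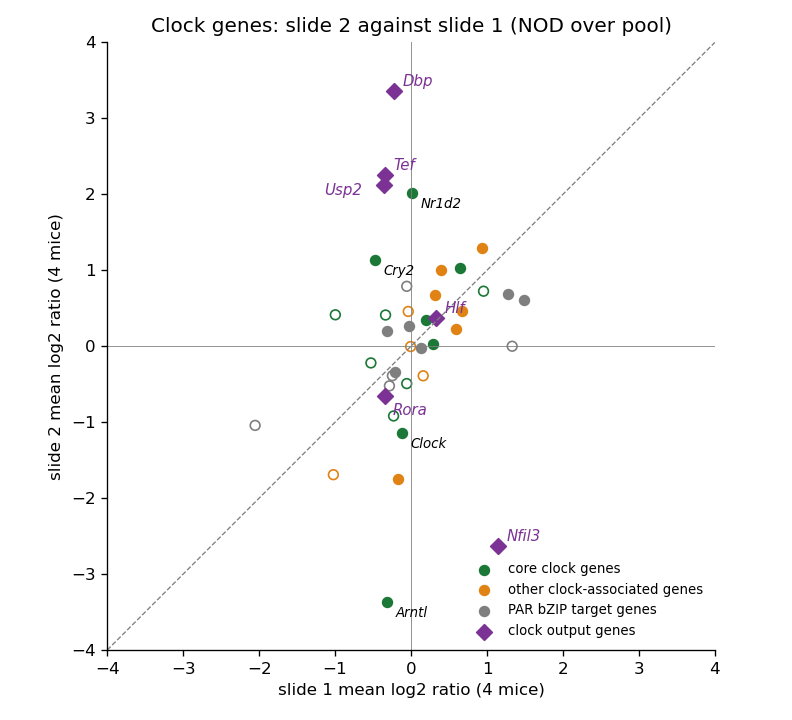
Mean log2 ratio on slide 1 (horizontal) against slide 2 (vertical), 4 mice each, for 6 clock output genes (purple diamonds) and 3 lists of clock genes; open circles had red well above background on fewer than 4 of 8 arrays, and the dashed line marks equal slides. Dbp (3.36 on slide 2), Tef, Usp2 and Nr1d2 lie above the line near 0 on slide 1, and Arntl and Nfil3 (-2.63 on slide 2) lie below it.

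Within slides, the genes whose ratios followed those of Dbp and Tef most closely were sought among 6243 genes with both dyes well above background on all 8 arrays, after each slide's mean was subtracted. For Dbp they were Arpc5 (r = 0.91), Mt2 (r = 0.91) and Smek2 (r = 0.91), and for Tef LOC547412, Eml1 and Edem2 (r = 0.99, 0.99 and 0.98), each over 8 arrays that share 1 pool and the array noise. None of the 6 is in a clock list. For Dbp the SD was 0.28 on slide 1 and 0.020 on slide 2, so its r rests mostly on the 4 mice of slide 1. For Tef the slide 2 ratios were 2.09 to 2.17 apart from 2.62 in mouse 6, so its r rests largely on that mouse.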

How the data were processed

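Pancreas RNA of 8 NOD mice (Cy5, red) was measured against 1 pool of 8 NOD.B10 mice (Cy3, green) on two-color Agilent arrays with 60-base probes. The authors scanned the slides and processed the images with Agilent Feature Extraction (version 10.7.3.1, from the file headers). For every spot the deposited values include a log10 ratio (red against green), the normalized intensity of either dye, the intensity before dye normalization, and quality flags. Probe positions are on mm8 and were not converted.

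Ratios were converted from log10 to log2, and repeated spots were averaged. The brightest probe of a gene (mean log2 signal of both dyes) is reported. Probes with a symbol and a red signal of at least 25 on at least 4 of 8 arrays were tested (28105 probes, 18505 genes) with limma 3.58.1 in R 4.3.3, as a one-sample moderated test over 8 arrays with Benjamini-Hochberg adjustment. Calls need 2-fold and an adjusted p under 0.01. The fit was tested on simulated data. Tables used Python 3.11.15, numpy 2.4.6 and pandas 2.3.3, and plots matplotlib 3.10.9. Numbers 1 to 8 name mice and come from the sample titles. Replicates are separate animals, and their number limits the precision. Alternatives were the ratio of processed signals, median-centred signals, a normexp background (offset 50) with loess, all probes of a gene, the median, other filters and tests, a slide covariate, and each replicate left out.

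The members and gene lists were chosen with earlier results of these data known. Of each clock list the text names the genes called, or up to 4 with the mean farthest from 0 among those with red well above background on at least 4 arrays. Nr1d1, Cyp2a5 and Ppara were named outside this rule, after their values were seen. The likeness rule took the 3 genes with the highest Pearson r after removing slide means. Human samples of the study were not analysed here. The values of 1 listed gene are not reported here.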

Additional observations from a re-analysis of the deposited data

Results flagged for a closer look

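Of 21 sets of values checked (the 7 genes over 8 mice and on each slide), 3 held a mouse apart from the others by Dixon's ratio of gap to range, which chance gives in about 1 set in 20. The sets overlap, and these ratios chose the genes, so this is a description only. Tef in mouse 6 was the highest of slide 2 at 2.62, with a gap of 0.848 of the range. Hlf in mouse 1 was the lowest of slide 1 at -0.98, on a probe with red at background on every array. Wee1 in mouse 6, on a probe at background on every array, was the highest of 8 at 0.12, where all other ratios lay within 0.07 of 0.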

How the results depend on the processing

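No paired analysis was possible because the 8 arrays form 1 group. Of 98 alternative values of the members' means 96 moved by less than 1 SD over mice. Of 91 alternative slide differences 82 moved by less than the pooled SD within slides. These counts do not measure stability. Many of the alternatives leave out 1 mouse, which can shift a value only a little. The SD over mice also contains the slide difference of Dbp, Tef, Usp2 and Nfil3. A Nfil3 mean of -0.74 that became 0.0069 thus counts as less than 1 SD. The exceptions for the means were Wee1, at 0.36 from processed signals and 2.08 with median-centred signals. The slide difference of Wee1 became -0.24, 0.81 and 0.081 with processed signals, median-centred signals and normexp with loess, all at background. With normexp and loess the slide difference was -1.46 for Nfil3, 1.07 for Tef and 1.13 for Usp2, and median-centred signals gave 2.09 for Tef. The means of Hlf and Nfil3 lay at -0.0083 and 0.0069 with normexp and loess. Averaging all probes gave 0.57 for Tef and 1.88 for Usp2. The cause was not tested.

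Members past 2-fold numbered 4 with median-centred signals, and these were Dbp (1.46), Usp2 (1.12) and the background probes of Hlf (1.10) and Wee1 (2.08), with Tef at 0.69 and Nfil3 at -0.89. With a mouse left out they numbered 1 to 4, and the 4 without any 1 of mice 1 to 4 were Dbp, Tef, Usp2 and Nfil3. Leaving out a mouse gave means of 1.31 to 1.87 for Dbp, 0.72 to 1.16 for Tef, 0.60 to 1.08 for Usp2 and -1.03 to -0.38 for Nfil3.

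Probes called over all features, 484 as reported (18.0% of them higher in NOD), were 4160 from processed signals (83.4% higher), 7248 with median-centred signals (82.5%), 67 with normexp and loess (71.6%), 308 with a plain one-sample statistic (21.1%), 133 with red well above background on at least 4 arrays (68.4%), and 243 to 336 with a mouse left out. Median-centring moved the median of all probes from -0.090 to 0.087. Core clock genes called were 2 with slide as a covariate (Arntl and Nr1d2) and 1 with median-centred signals (Arntl). Other clock-associated genes called were 2 with the covariate, 2 from processed signals, 4 with median-centred signals and 0 with normexp and loess. PAR bZIP target genes called were 2 with the covariate, 1 with the red filter, 3 from processed signals, 4 with median-centred signals, and 0 to 2 with a mouse left out (2 without mouse 7). Probes called between slides, 32 as reported, were 0 to 10 with a mouse left out. Clock genes called between slides were 2 with median-centred signals, 0 with normexp and loess, and 0 to 1 with a mouse left out (0 without mouse 5).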
